A study of Rattus norvegicus with 9 samples.

Results

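The genes described here are 10 that carry out the breakdown of adenine nucleotides, the salvage of their products and the signalling of adenosine: Entpd1, Nt5e, Ampd2, Ampd3, Adk, Adora1, Ada, Pnp, Xdh and Hprt1. Their probes were taken by name, as every gene probe whose gene name in the array files equals one of the 10. This gave 11 probes of 30367, and 10 gene names of 26115. Adora1 has 2 probes and each of the other 9 genes has 1.

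Each of the 9 arrays measured the total RNA of 1 rat kidney, labelled with Cy3 and read as brightness on Agilent arrays of 1 colour. All kidneys came from Fisher F344 rats and were removed after 20 min. of warm ischaemia, for which the labels name clamping of the abdominal aorta and the study's methods name the renal artery. The 5 NP kidneys were not perfused. The 4 MSC kidneys were perfused for 4 hrs at 4°C with Belzer solution (BS) to which 3000000 mesenchymal stromal cells (MSC) had been added. These cells were grown from the bone marrow of Sprague Dawley rats that carry an EGFP transgene, so that they are of another strain than the kidneys. The comparison asks which transcripts differ in level between kidneys given MSC in the cold and kidneys at the start of preservation. The groups differ in the hours of perfusion as well as in the cells, and these cannot be told apart. The submitters' labels are divided on the controls, whose treatment field gives no perfusion while their titles and descriptions name BS. A further MSC array, put aside by the authors for its quality, was not analysed here. In whole kidney, fewer cells of a type and less RNA per cell cannot be told apart.

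ATP that leaves a cell is cut to AMP by Entpd1 (CD39) and from AMP to adenosine by Nt5e (CD73), and adenosine acts on receptors such as Adora1. Inside the cell AMP is deaminated by Ampd enzymes, adenosine is deaminated by Ada or phosphorylated back to AMP by Adk, and inosine is split by Pnp to hypoxanthine. Hprt1 returns hypoxanthine to the nucleotide pool, and Xdh oxidises it to xanthine and uric acid. In ischaemic kidney ATP falls and its breakdown products accumulate, and the oxidase form of Xdh is known as a source of reactive oxygen when oxygen returns.

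An array reads a gene through the stretch its probe covers, so the sequences of 3 chosen probes are shown. They are taken from the array files 5′ to 3′, and the other probes were not placed in coding sequence or UTR here. The Ada probe, at chr3:154637325-154637384 on the minus strand of rn4, has no stop codon in its first frame over 20 codons. This alone does not identify a reading frame.
Ada: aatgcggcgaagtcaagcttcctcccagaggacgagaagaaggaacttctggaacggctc
In the Adk probe, at chr15:3094324-3094383 on the minus strand, the 21 capitals are the bases that the second frame reads as the conserved motif with the catalytic aspartate of the ribokinase family.
Adk: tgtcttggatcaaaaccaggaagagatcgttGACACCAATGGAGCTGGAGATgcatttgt
The 2 Adora1 probes lie on the minus strand with starts 1111 bases apart. The probe A_64_P004477, at chr13:47160301-47160360, runs over the end of the reading frame, and its first 34 bases are shown with the stop codon in capitals.
Adora1: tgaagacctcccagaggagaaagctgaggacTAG
The other Adora1 probe, A_44_P137633, is at chr13:47159190-47159249. The minus strand runs toward lower positions, so this probe lies downstream of the stop codon on the genome.

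Values are normalized log2 intensities, on which a difference of 1 is a doubling. A probe was taken as expressed where it stood above a limit set from the negative control spots, which was 8.71 to 8.78 on the arrays, and was tested if at least 4 arrays met this. The test then took 15836 probes, among them 9 of the 11 probes of these genes. Entpd1 and the second Adora1 probe were not kept. Differences are MSC minus NP, with the standard error (SE), 95% interval and false discovery rate (FDR) from limma over all probes kept. A call needed both an FDR under 0.05 and a fold over 1.5. Under that rule 0% of all probes were called higher and 0% lower in MSC. The study itself reports Tmem52b and Calb1 as higher in MSC at these limits. Here their limma FDRs were 0.104 and 0.231. At an unadjusted p under 0.05, 6.49% of all probes were higher in MSC and 5.12% were lower. Every MSC array was above every NP array for 3.12% of the probes, and below for 2.13%.

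No gene of the 10 passed the FDR. Of the 9 probes kept, 8 had a higher mean in the MSC samples and 1, for Adora1, a lower mean. Among all probes kept, 48.8% had a higher mean in MSC. For 5 of the 9 the sign differed between the 2 slides that held the arrays. The FDR of the 9 ran from 0.334 to 0.985, from limma. Hprt1 was the 1 probe of the 9 at an unadjusted p under 0.05, and the 1 probe in which the groups did not overlap. The median difference of the 9 was 0.09, against -0.0048 over all probes kept. The 95% intervals of the 9, taken as folds, reached down to 0.698 and up to 1.57. No member that was kept therefore had an interval that reached a doubling or a halving.

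**Figure D1:**
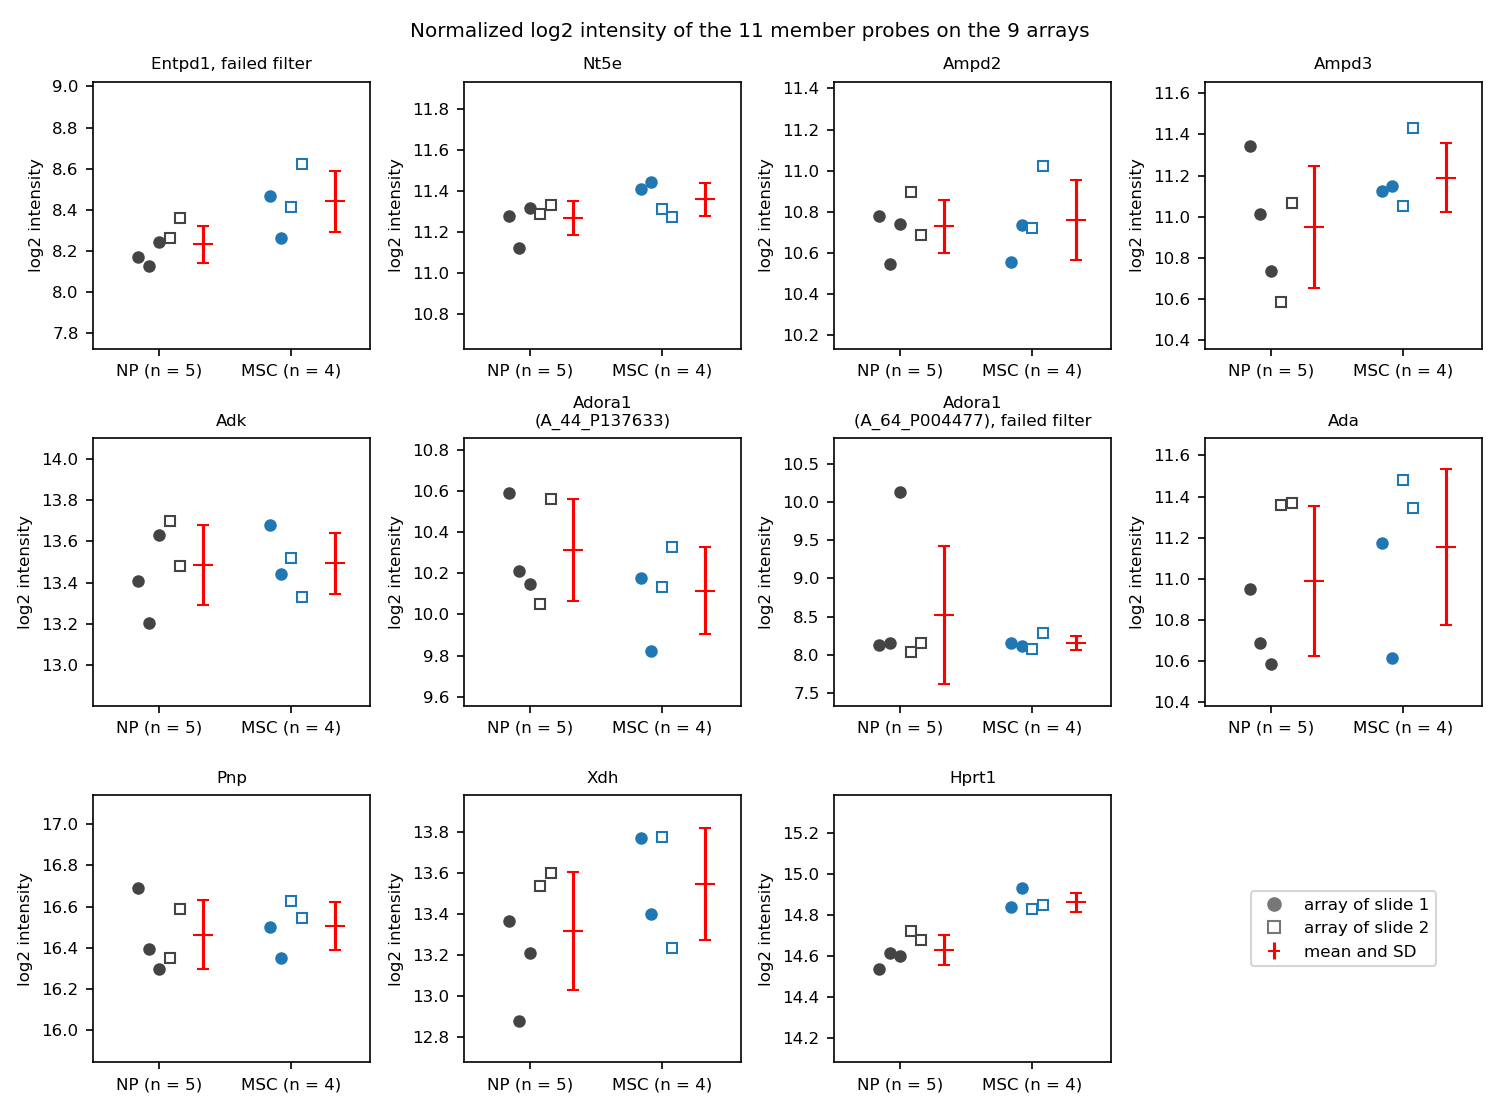
Normalized log2 intensity (vertical axes, each with its own range) of the 11 probes on 5 NP and 4 MSC arrays. Filled circles are arrays of slide 1, open squares arrays of slide 2, and red marks the mean and SD of each group. The 4 MSC arrays stand above the 5 NP arrays for Hprt1 and for no other probe.

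Extracellular breakdown begins with Entpd1, the membrane enzyme that removes phosphates from ATP and ADP on endothelium and leukocytes. Its probe, at chr1:245887297-245887356 on the plus strand, was dim. It read 8.17, 8.13, 8.25, 8.26 and 8.36 on NP replicates 1 to 5, and 8.47, 8.26, 8.41 and 8.62 on MSC replicates 1 to 4. Of the MSC arrays 3 were above every NP array and MSC replicate 2 was not. The difference of 0.21 (SE 0.08, interval 0.03 to 0.38) had a limma p of 0.0247 and an FDR of 0.490 in the fit without the filter, which tests all 30367 probes. Raw spots were 269 to 344 on NP arrays and 274 to 439 on MSC arrays, beside a median negative control of 217 to 237. Both spots were well above background on 2 NP and 2 MSC arrays. With normexp background correction alone the difference was 0.26 (limma FDR 0.539). With background-subtracted intensities scaled to the 75th percentile, which changes the normalization too, it was 0.87 (limma FDR 0.915). When each array was left out in turn the limma p ran from 0.00555 to 0.0700, and was over 0.05 without NP replicate 2, MSC replicate 1 or MSC replicate 4. The endothelial markers, with 7 of 8 listed genes kept, had a mean level of 10.88 to 11.48 on NP arrays and 11.08 to 11.61 on MSC arrays. The leukocyte markers, with 7 of 10 genes kept, had 10.31 to 10.79 and 10.55 to 10.83. The part of these cell types in the Entpd1 values was not tested.

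Nt5e, which makes adenosine from AMP outside the cell and is also used as a surface marker of cultured MSC, had, after Hprt1, the smallest SD of the 9 probes kept in both groups. Its probe is at chr8:93634357-93634416 on the plus strand. Nt5e read 11.28, 11.12, 11.32, 11.29 and 11.33 on the NP arrays and 11.41, 11.44, 11.31 and 11.27 on the MSC arrays. MSC replicates 1 and 2 were above every NP array, while MSC replicates 3 and 4 lay among them. The group means were 11.27 ± 0.08 (SD, n = 5) and 11.36 ± 0.08 (SD, n = 4). The difference of 0.09 (SE 0.08, interval -0.08 to 0.26) had a limma FDR of 0.654, and was 0.06 without NP replicate 2. On slide 1 the difference was 0.19 and on slide 2 it was -0.02. NP replicate 2 stood apart from the other NP arrays at 11.12. Of 10 genes listed as markers of MSC, 7 were kept, and their mean level was 11.19 to 12.24 on NP arrays and 11.67 to 12.26 on MSC arrays. Thy1, Itga5 and Postn of that list were not kept.

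The 3 other genes whose pattern over the 9 arrays was most like that of Nt5e were Eri3 (Pearson's r 0.958), Txndc15 (0.957) and Cd59 (0.947). These values describe 9 arrays that share normalization, and they were the highest of all probes kept.

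Adora1 is the receptor through which adenosine constricts the afferent arteriole of the glomerulus and lowers filtration. The probe A_44_P137633 has 10 spots on each array, so that its value is an average over more spots than most. It read 10.59, 10.21, 10.15, 10.05 and 10.56 on NP arrays and 10.18, 9.82, 10.13 and 10.33 on MSC arrays. MSC replicate 2 was below every NP array and the other MSC arrays lay within the NP range. The difference of -0.20 (SE 0.14, interval -0.52 to 0.12) had a limma FDR of 0.611. It was -0.10 without MSC replicate 2 and -0.13 without NP replicate 1. It was -0.32 on slide 1 and -0.08 on slide 2. The median SD between its spots on an array was 0.09, while the SD between NP arrays was 0.25.

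The second Adora1 probe, A_64_P004477, whose bases end the reading frame, was near background. It read 10.14 on NP replicate 3 and from 8.03 to 8.28 on the other 8 arrays. On NP replicate 3 the raw intensity of 1 spot was 4535 and of the other spot 268, and the 17 spots other than the bright one lay between 246 and 346. Both spots were well above background on 1 NP and 1 MSC array. With all spots the difference was -0.36 (SE 0.41), with a limma FDR of 0.848 in the fit without the filter. Without the bright spot it was 0.049, with a limma FDR of 0.843, a calculation added after the data were seen. This probe gives no level of Adora1 that can be set beside that of the first.

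**Figure D2:**
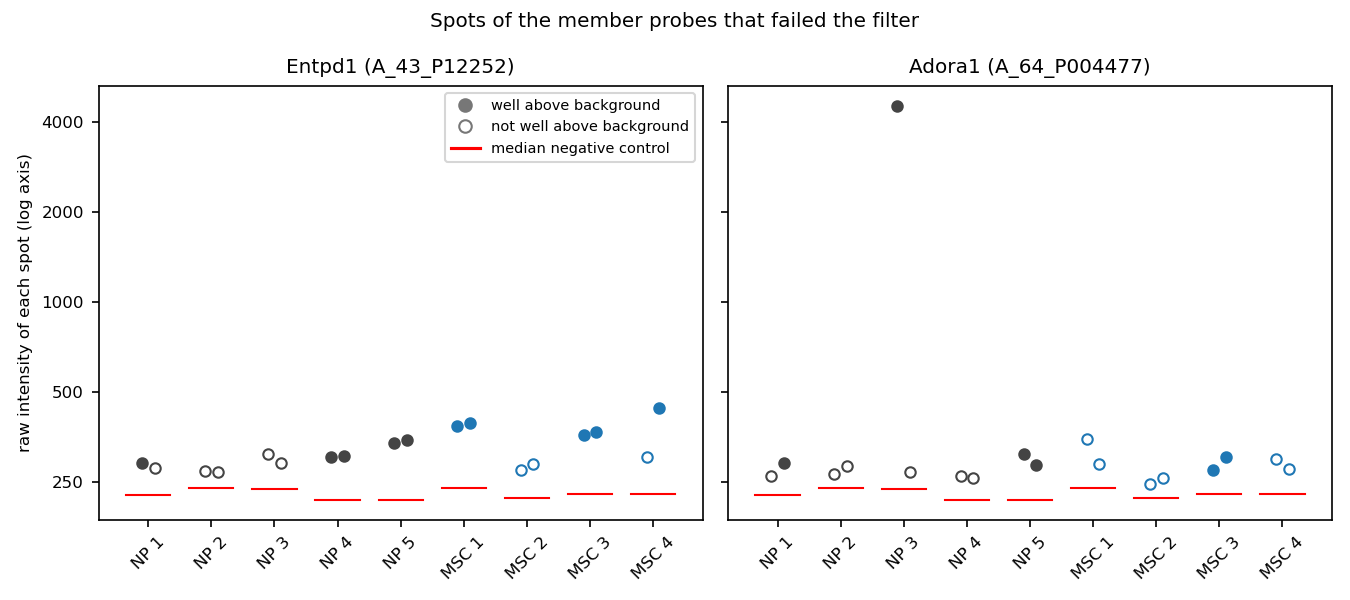
Raw intensity (log axis) of the 2 spots on each array for the Entpd1 probe (left) and the Adora1 probe A_64_P004477 (right). Filled points were well above background, grey-black points are NP, blue points MSC, and red bars the median negative control of the array. A single Adora1 spot on NP replicate 3 reads 4535 while the others read 246 to 346.

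Within the cell AMP is deaminated to IMP by the AMP deaminases, of which Ampd2 is the form known from liver and Ampd3 the form known from red cells. The Ampd2 probe, at chr2:203634054-203634113 on the minus strand, read 10.78, 10.54, 10.74, 10.89 and 10.69 on NP arrays and 10.56, 10.74, 10.72 and 11.02 on MSC arrays. Its difference was 0.03 (SE 0.11, interval -0.21 to 0.27), with a limma FDR of 0.939. The groups overlapped and MSC replicate 4 was the highest array.

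The Ampd3 probe is at chr1:168568143-168568202 on the plus strand, with 10 spots on each array. Ampd3 read 11.35, 11.02, 10.74, 10.58 and 11.07 on NP arrays and 11.13, 11.15, 11.05 and 11.43 on MSC arrays. The NP arrays spread over more than the MSC arrays and held them all but MSC replicate 4. The difference of 0.24 (SE 0.15, interval -0.10 to 0.58) had a limma FDR of 0.560. It was 0.11 on slide 1 and 0.42 on slide 2. Leaving out each array in turn gave 0.15 to 0.34, the lowest without NP replicate 4 (limma p 0.317) and the highest without NP replicate 1 (limma p 0.0288, FDR 0.257). Without MSC replicate 4 it was 0.16. The red cell markers, with 4 of 7 listed genes kept, had a mean level of 14.94 to 15.59 on NP arrays and 12.35 to 15.24 on MSC arrays, and were lowest on MSC replicates 1 and 3. On those arrays Ampd3 read 11.13 and 11.05. The part of red cells in the Ampd3 values was not tested.

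Adk, which rebuilds AMP from adenosine and so lowers free adenosine, differed least. Adk read 13.41, 13.20, 13.63, 13.70 and 13.48 on NP arrays and 13.68, 13.44, 13.52 and 13.33 on MSC arrays. Every MSC array lay within the NP range. The difference was 0.01 (SE 0.12, interval -0.25 to 0.27), with a limma FDR of 0.985, and was 0.15 on slide 1 and -0.16 on slide 2.

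Ada, the enzyme that turns adenosine to inosine, varied with the slide more than with the group. It read 10.95, 10.69, 10.59, 11.36 and 11.37 on NP arrays and 11.17, 10.62, 11.48 and 11.35 on MSC arrays. The 4 arrays of slide 2, which held NP replicates 4 and 5 and MSC replicates 3 and 4, were all above the 5 arrays of slide 1. The slide means were 10.80 and 11.39. In the limma fit with group and slide, slide 2 was higher than slide 1 by 0.57 (SE 0.13), with a p of 0.00145 and an FDR of 0.110. Of all probes 7.1% were higher on slide 2 at an unadjusted p under 0.05, 3.29% had every array of slide 2 above every array of slide 1, and 0.0947% passed an FDR under 0.05 for the slide in either direction. Ada was not among the last. The difference between MSC and NP was 0.16 (SE 0.22, interval -0.32 to 0.65), with a limma FDR of 0.797. It turned to -0.06 with array weights, and ran from 0.05 without MSC replicate 3 to 0.34 without MSC replicate 2. Leaving out any array other than NP replicate 1 or MSC replicate 1 moved it by over 1.5 times. With the slide as a block it was 0.11 (SE 0.13), with a limma FDR of 0.757. The SD of Ada was 0.37 among NP arrays and 0.38 among MSC arrays, the highest of the 9 probes kept in both groups.

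Pnp splits inosine and guanosine to their bases, and its probe lies at chr15:26937335-26937394 on the plus strand. Pnp read 16.69, 16.40, 16.30, 16.35 and 16.59 on NP arrays and 16.50, 16.35, 16.63 and 16.54 on MSC arrays. Every MSC array lay within the NP range. The difference of 0.04 (SE 0.10, interval -0.19 to 0.27) had a limma FDR of 0.900.

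**Figure D3:**
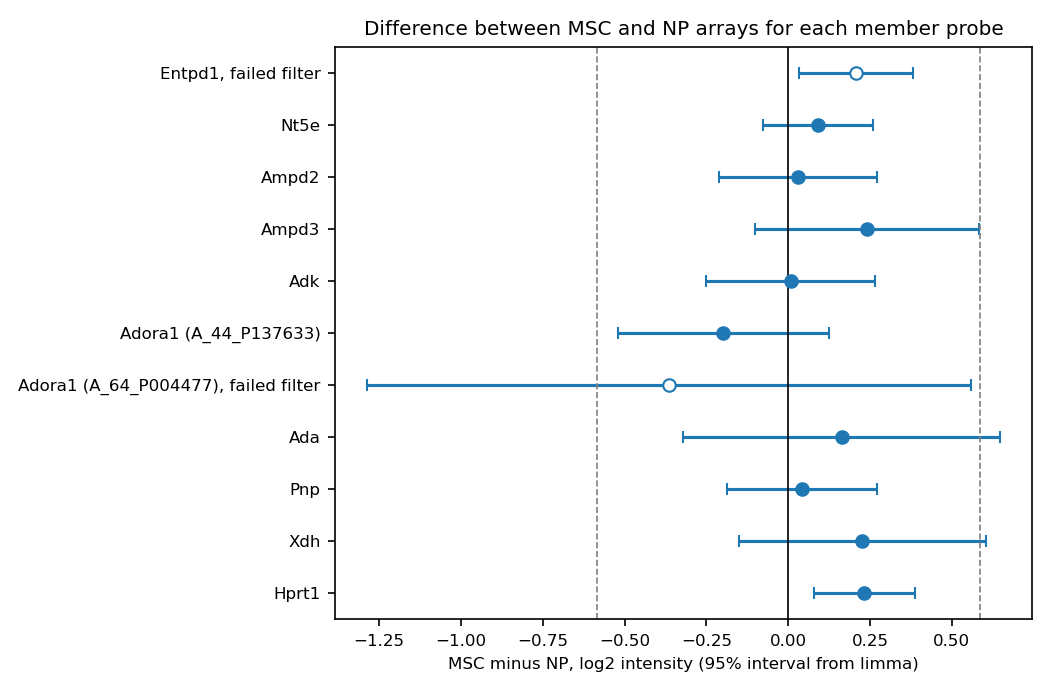
MSC minus NP in log2 intensity (horizontal axis) with the 95% interval from limma for each of the 11 probes. Open points failed the filter, and dashed lines mark a fold change of 1.5 in each direction. The intervals of Hprt1 and Entpd1 leave out 0, and their limma FDRs were 0.334 and 0.490.

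The last steps part the path between loss and salvage. Xdh, whose products are xanthine and uric acid, has its probe at chr6:21589807-21589866 on the plus strand. Xdh read 13.36, 12.88, 13.21, 13.54 and 13.60 on NP arrays and 13.77, 13.40, 13.78 and 13.24 on MSC arrays. MSC replicates 1 and 3 were above every NP array, and MSC replicates 2 and 4 were within the NP range. The means were 13.32 ± 0.29 (SD, n = 5) and 13.54 ± 0.27 (SD, n = 4). The difference of 0.23 (SE 0.17, interval -0.15 to 0.60), a fold of 1.17, had a limma FDR of 0.622. It was 0.12 without NP replicate 2, 0.15 without MSC replicate 3 and 0.11 with array weights. It was 0.43 on slide 1 and -0.06 on slide 2. The 3 other genes most like Xdh over the 9 arrays were Slc34a3 (Pearson's r 0.975), a phosphate transporter of the proximal tubule, Map2k1 (0.973) and Cdk5 (0.963).

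Hprt1, which returns hypoxanthine and guanine to nucleotides and is often taken as a reference gene in RT-PCR, was higher in every MSC array. Its probe is at chrX:139961524-139961583 on the plus strand. Hprt1 read 14.54, 14.61, 14.60, 14.72 and 14.68 on NP arrays and 14.84, 14.93, 14.83 and 14.85 on MSC arrays. The lowest MSC array stood above the highest NP array. The means were 14.63 ± 0.07 (SD, n = 5) and 14.86 ± 0.05 (SD, n = 4). The difference was 0.23 (SE 0.07, interval 0.08 to 0.39), a fold of 1.17 with an interval of 1.06 to 1.31. The limma p was 0.00736 and the FDR 0.334, so that Hprt1 did not pass over all probes. With 1 of 9 probes beyond an unadjusted p of 0.05 and 6.49% of all probes higher at that limit, the count is no result about the 10 genes as a set. The difference was 0.30 on slide 1, 0.14 on slide 2 and 0.23 with the slide as a block, where the limma FDR was 0.287. With background-subtracted intensities scaled to the 75th percentile it was 0.17, with a limma p of 0.102 and an FDR of 0.564. The markers of thick ascending limb and collecting duct, with all 6 listed genes kept, were also higher on every MSC array, at a mean level of 14.66 to 15.05 against 14.20 to 14.56. Fat markers, with 4 of 8 genes kept, were 11.50 to 13.45 against 11.39 to 11.99. The part of these cells in the Hprt1 values was not tested.

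**Figure D4:**
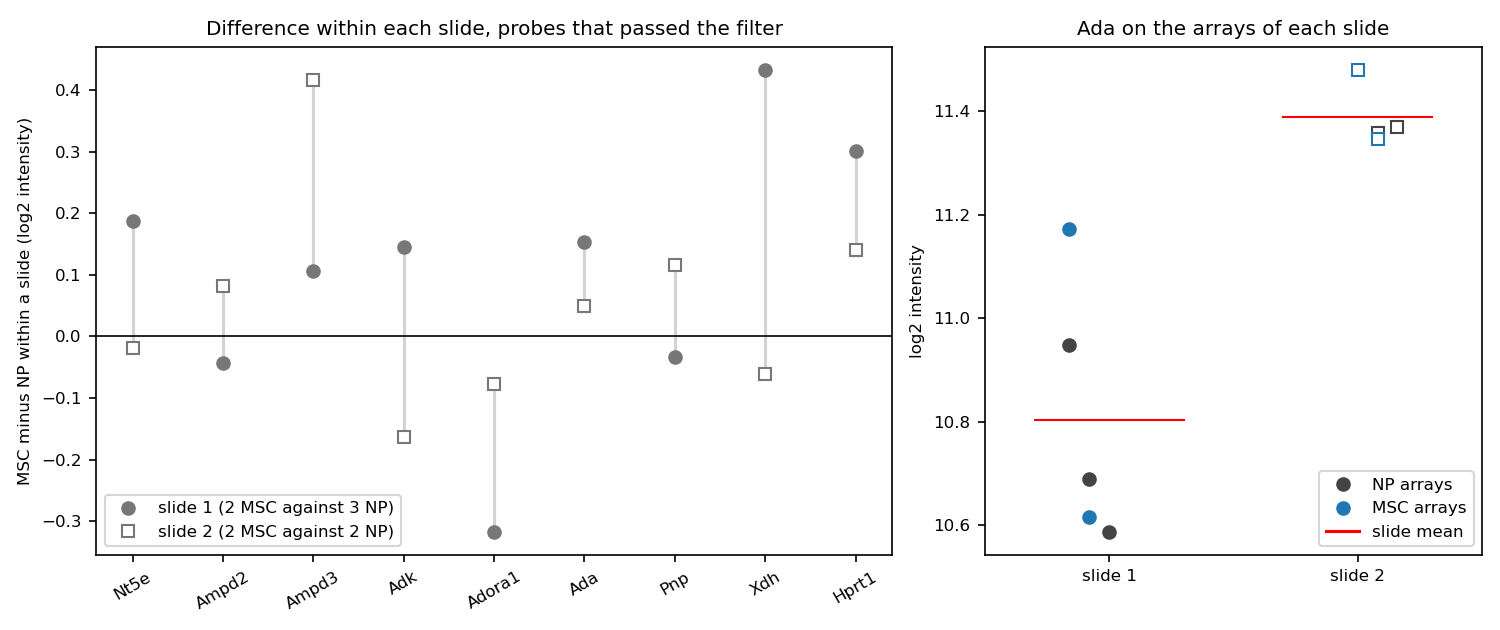
Left, MSC minus NP in log2 intensity within slide 1 (circles) and slide 2 (squares) for the 9 probes kept. Right, log2 intensity of Ada on the arrays of each slide, with the slide mean in red at 10.80 and 11.39. Hprt1, Ampd3 and Ada differ in the same direction on both slides, as does Adora1 with the opposite sign, and for the 5 other probes the sign differs between slides.

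The genes around these steps were taken from 8 lists with 79 genes, of which 69 had a probe. Of 82 probes, 53 for 45 genes were kept, and 0 passed an FDR under 0.05. At an unadjusted p under 0.05, 6 of the 53 were higher in MSC (11.3%, beside 6.49% of all probes) and 3 lower (5.66%, beside 5.12%). The 6 include 1 Entpd2 probe that was kept only through the MSC arrays. The median difference of the 53 was 0.05.

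Among the receptors for ATP and the channels that release it, 7 probes were kept, and 0 were higher and 2 lower at that limit. Panx2, a pannexin, read 11.50, 11.78, 11.65, 11.68 and 11.63 on NP arrays and 11.06, 11.28, 11.37 and 11.29 on MSC arrays. Every MSC array was below every NP array. The difference of -0.40 (SE 0.09) had a limma p of 0.00129 and an FDR of 0.334. The other was P2ry2, a receptor for ATP and UTP, with -0.16 (SE 0.06) and a limma FDR of 0.386. The enzymes of extracellular and secretory nucleotide hydrolysis gave 10 probes, with 1 higher and 0 lower. This was an Entpd2 probe, for the enzyme that cuts ATP to ADP. It read 8.90, 8.56, 8.52, 8.53 and 8.76 on NP arrays and 9.11, 9.04, 9.12 and 9.10 on MSC arrays. Of these, 2 of the 5 NP arrays and all 4 MSC arrays were above the limit for expression, so that the probe was kept only through the group where it was high, and its place in the counts rests on the filter. The difference of 0.44 is given as a value with no test. It was 0.59 with normexp background correction alone, and 1.09 with background-subtracted intensities scaled to the 75th percentile. The 2 other Entpd2 probes differed by 0.28 (SE 0.17) and 0.17 (SE 0.13), with limma FDRs of 0.548 and 0.646. On both, NP replicate 2 was the lowest array, which raises both differences. It read 11.88 and 13.13, and the other NP arrays read 12.38 to 12.87 and 13.44 to 13.76. Entpd5, named for its intensity, differed by -0.26 (SE 0.13), with a limma FDR of 0.474, and by -0.15 without NP replicate 2.

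Of the other adenosine receptors Adora2a was kept and Adora2b and Adora3 were not. Adora2a, through which adenosine relaxes vessels and restrains leukocytes, read 9.49, 10.54, 9.87, 9.94 and 10.04 on NP arrays and 9.41, 8.87, 9.72 and 9.57 on MSC arrays. MSC replicates 1 and 2 were below every NP array, while MSC replicates 3 and 4 lay within the NP range. The difference of -0.58 (SE 0.22) had a limma p of 0.0235 and an FDR of 0.377. Without MSC replicate 2 it was -0.41, with a limma p of 0.0749. On all arrays it was -0.71 with normexp background correction alone and -0.91 with background-subtracted intensities scaled to the 75th percentile. Both adenosine receptor genes that were kept had lower means in MSC samples, and neither passed the FDR. The transporters that carry nucleosides across membranes gave 8 probes. Of these 7 had higher means in MSC, beside 48.8% of all probes kept, 2 of them at an unadjusted p under 0.05. Slc29a3, the equilibrative transporter of lysosomes, differed by 0.27 (SE 0.10), with every MSC array above every NP array and a limma FDR of 0.376. Its limma p was under 0.05 in 15 of 19 alternatives. It was 0.0894 with background-subtracted intensities scaled to the 75th percentile and 0.0543 with the replicate number as a block. Slc29a1, the main equilibrative transporter of the cell surface, differed by 0.39 (SE 0.17), with a limma FDR of 0.423.

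Of the adenylate kinases, which exchange phosphates between adenine nucleotides, 6 probes were kept and 0 were at an unadjusted p under 0.05. Ak4, a mitochondrial form, differed by -0.16 (SE 0.07) on the probe with the smallest p, with a limma FDR of 0.442. Its other kept probe differed by -0.51 (SE 0.45), with a limma FDR of 0.675. The cytosolic and mitochondrial nucleotidases gave 2 probes, and Nt5c3a differed by -0.09 (SE 0.12), and by -0.16 to -0.02 when each array was left out in turn, the ends without MSC replicate 1 and NP replicate 3. In the list of other steps of deamination, salvage and urate, Adal differed by -0.22 (SE 0.11), or by -0.13 without NP replicate 2, and Aprt, which salvages adenine as Hprt1 does hypoxanthine, by -0.07 (SE 0.07). Aprt was lower in the mean where Hprt1 was higher, with a limma FDR of 0.693. For Uox, Ampd1 and Allc of that list, no array had all spots well above background.

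De novo purine synthesis and interconversion gave 16 probes, of which 14 had higher means in MSC, beside 48.8% of all probes kept. The 3 at an unadjusted p under 0.05 were all for GMP reductases, which turn GMP to IMP. The Gmpr2 probes differed by 0.27 (SE 0.08) and 0.32 (SE 0.14), with limma FDRs of 0.334 and 0.419. The first was 0.22 to 0.30 when each array was left out in turn. On the second, NP replicate 2 read 10.93 and the other NP arrays 11.40 to 11.67, which raises its difference. Gmpr differed by 0.25 (SE 0.11), with a limma FDR of 0.408. Atic, named for its intensity, differed by 0.04 (SE 0.10), and by 0.01 to 0.11 when each array was left out in turn, the ends of this range without NP replicate 4 and NP replicate 1. P2ry2, Slc29a1, Gmpr and the further probes of Entpd2, Gmpr2 and Ak4 were named after their values were seen.

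**Figure D5:**
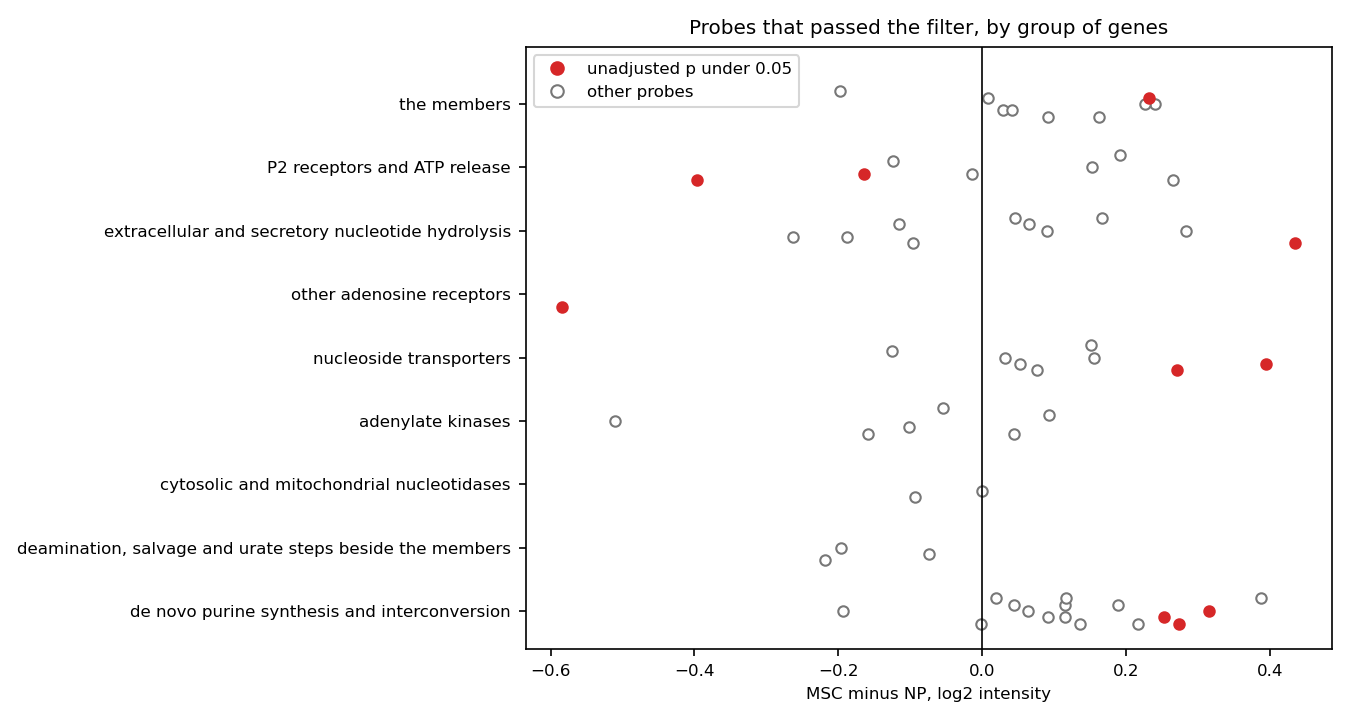
MSC minus NP in log2 intensity (horizontal axis) for the 9 member probes and the 53 probes of the 8 lists that passed the filter, 1 point a probe. Red points have an unadjusted limma p under 0.05, and none passed an FDR under 0.05. The vertical offset within a row carries no meaning. Hprt1 is the red point among the members.

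Over the arrays the median raw intensity of gene spots was 577 to 917, and 65.6% to 74.3% of gene spots were well above background. Kidney genes were bright, with Aqp2 at 17.99 to 18.61, Umod at 17.76 to 18.78 and Lrp2 at 16.14 to 16.52 on 1 of its probes. Podocyte markers, with 4 of 5 genes kept, had a mean level of 11.38 to 12.05 on NP arrays and 10.75 to 11.92 on MSC arrays, and proximal tubule markers, with all 8 kept, 16.81 to 17.12 and 17.02 to 17.16. Arrays hold no count of molecules, so their number limits the precision. Whether kidneys of a group shared a day is not given in the labels, and p-values measure the spread between these arrays.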

How the data were processed

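Gene expression of 9 rat kidneys (5 NP, 4 MSC) was measured on Agilent arrays of 1 colour. The authors deposited the spot intensity of each array as Agilent Feature Extraction gave it, and log2 values that they had normalized with limma. Those log2 values cover all 30367 gene probes and correlated with the values computed here on every array (lowest Pearson's r 0.99987). The array file headers give version 10.7.3.1 for its grid placement. No column of values per sample was left unused (0 columns).

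Mean spot intensity without background subtraction was log2 transformed and normalized by cyclic loess, as in the paper's methods, with limma 3.58.1 in R 4.3.3 (files were read by data.table, version 1.17.8). Of 58717 gene spots per array, 273 to 593 with outlier flags were left out, and spots of a probe were averaged. The filter kept a probe if at least 4 arrays read it, in log2, at over 1.1 times the level below which 95% of the 308 negative controls lie. This is 1 reading of the paper's filter, whose wording allows others. Every probe of a gene was kept, where the methods keep 1. A linear model with empirical Bayes and Benjamini-Hochberg adjustment compared MSC with NP. Probes that failed the filter were tested in the same fit without it.

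The members and the gene lists were chosen with earlier results of these data known, and so were the tests. All member probes were named, and of each pathway list the genes with the smallest p and the brightest probe, except 1 gene that is not reported here. For Nt5e and Xdh the 3 genes most correlated over the arrays were named. Gene names and rn4 positions are those of the array files. Of the 11 probes, 9 had an accession in the RefSeq gene table (GRCr8), which was used for names only. Biostrings 2.70.1 translated the probes shown. No rn4 annotation was used here, so exon and UTR are not given.

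The arrays lay on 2 slides, slide 1 with NP replicates 1, 2 and 3 and MSC replicates 1 and 2, and slide 2 with the rest. Alternatives changed the intensity column, background correction, normalization, filter, choice of probe, slide or replicate block, array weights, threshold and source of the values, or left out each array in turn. Tested on simulated arrays of this design, with 200 of 15834 probes changed, limma called 89% of those changed 2-fold and 98% of those changed 4-fold, with 1 false call. The simulated noise was drawn separately for each probe and array, without slide effects or stray spots. It therefore cannot show that 2-fold changes are absent from the real arrays. Folds under 2 were not simulated, so it gives no power for differences of the size seen in these genes.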

Additional observations from a re-analysis of the deposited data

Results flagged for a closer look

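Among the 22 sets of values tested for a distant array (11 probes in each group), 2 had a gap above the 95% critical value of Dixon's test, where chance gives about 1.1. The Nt5e value of NP replicate 2, at 11.12 against 11.28 to 11.33 on the other NP arrays, had a gap of 0.738 of the range. The value of the Adora1 probe A_64_P004477 on NP replicate 3, at 10.14 against 8.03 to 8.16 on the other NP arrays, had a gap of 0.942 of the range, and comes from 1 of its 2 spots.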

How the results depend on the processing

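The count of member probes at an unadjusted p under 0.05 was 1. It was 0 with background-subtracted intensities scaled to the 75th percentile, 2 with array weights, and 1 to 2 when each array was left out in turn, with 2 without NP replicate 1. The second probe was Ampd3 in both cases. It was also 2 without the filter and with the filter on spots well above background, where Entpd1 entered the test and was the second probe. The number of probes called was 0 higher and 0 lower. It was 2 higher with array weights, and 95 higher and 83 lower where a fold over 1.5 and an unadjusted p below 0.05 sufficed. Hprt1 was higher in MSC under all 19 alternatives, at a limma p of 0.00100 to 0.102, under 0.05 in 18. Panx2 was lower under all 19. The groups did not overlap for either probe, so leaving out an array could not reverse the sign. Settings that changed only the filter or the choice of probe left both differences as they were. The 19 are therefore not separate tests.

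Some differences that had not passed changed sign. Adk was -0.037 with the 75th percentile, -0.0046 with quantile normalization and -0.043 with array weights. Array weights also gave -0.060 for Ada, -0.037 for Ampd2 and 0.019 for Nt5c3a. When each array was left out in turn, the range was -0.062 to 0.062 for Adk, 0.05 to 0.34 for Ada, 0.12 to 0.33 for Xdh, -0.059 to 0.097 for Ampd2, -0.00025 to 0.098 for Pnp, and -0.486 to 0.039 for the Adora1 probe A_64_P004477, the last positive without NP replicate 3. That probe was 0.049 without its bright spot, an alternative chosen after seeing the data. The cause of the other sign changes was not tested.

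The deviations of same-numbered arrays had r of 0.20, 0.32, -0.35 and 0.05 for replicates 1 to 4, which cannot settle whether the numbers pair kidneys. The NP and MSC arrays of replicates 1, 2 and 4 shared a slide, and those of replicate 3 did not. With the replicate block, which drops NP replicate 5, the count of member probes was 1 and 0 probes were called. The dim probes of Entpd1 and Adora1 limit what can be read of both genes.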
